A study of Mus musculus with 8 samples.

Results

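The genes described here encode the machinery that detects foreign nucleic acid in a cell and the genes that interferon switches on in response. They were taken from a table of RNA sequencing counts of mouse liver by gene symbol: 38 genes were listed, 36 of them were found among the 20894 genes of the table, and Dhx58 and Mx2 are not analysed here. Of the 36 genes, 30 passed the filter on low counts and were tested, and 6 did not. The livers came from wild-type mice, all given an AAV8 vector (an adeno-associated virus that favours liver) and all fasted in daytime before tissue was taken. In 4 livers the vector carried POLR2G, a subunit of RNA polymerase II, and in the 4 controls it carried green fluorescent protein (GFP). Both were placed behind the TBG promoter, which restricts expression largely to hepatocytes. The controls carried a vector too, so that these libraries hold no value for liver without AAV8. The labels give neither age, sex nor dose, and they tie no library to an animal, so the p-values rest on library-to-library spread, which may be technical.

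Cells sense viral nucleic acid through proteins that differ in place and ligand. RIG-I (Ddx58) and MDA5 (Ifih1) bind RNA in the cytosol and signal through MAVS on mitochondria, TLR3 binds double-stranded RNA in endosomes, and ZBP1 binds Z-form nucleic acid. The kinases TBK1 and IKK-epsilon (Ikbke) then activate transcription factors that switch on interferon genes. Interferon alpha and beta bind a receptor made of IFNAR1 and IFNAR2, and transcription factors that include STAT2 carry the signal to a promoter element, the interferon-stimulated response element. The genes behind it encode antiviral effectors, feedback inhibitors and parts of antigen presentation. The series title ties POLR2G to IRF3, one of the factors that TBK1 activates, and the comparison asks how these genes stood in liver when POLR2G was raised in hepatocytes.

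None of the 30 genes tested was higher or lower in the POLR2G livers at an adjusted p under 0.05 (edgeR's quasi-likelihood test, Benjamini-Hochberg over all 10390 genes tested), where 0.0385% of all genes tested passed (0.0192% higher and 0.0192% lower). At an unadjusted p under 0.05 the count was also 0 of 30, where 8.3% of all genes passed. With 1 library left out that count was 0 to 2, with Mx1, which is not among the 30, counted where it entered the fit. DESeq2 (1.41% of all genes with an adjusted p) and limma-voom called 0 of 30 as well. For 0 of the 30 genes did all POLR2G libraries lie on one side of all GFP control libraries, where 5.51% of all genes tested did (2.83% with POLR2G higher and 2.68% with POLR2G lower). The mean was lower in the POLR2G libraries for 20 of the 30 (66.7%, against 50.7% of all genes tested) and higher for 10, and the median log2 fold change was −0.05, against −0.0031 over all genes tested. Log2 fold changes ran from −0.51 (Rsad2) to 0.93 (Ifnar1), POLR2G against GFP control throughout.

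**Figure D1:**
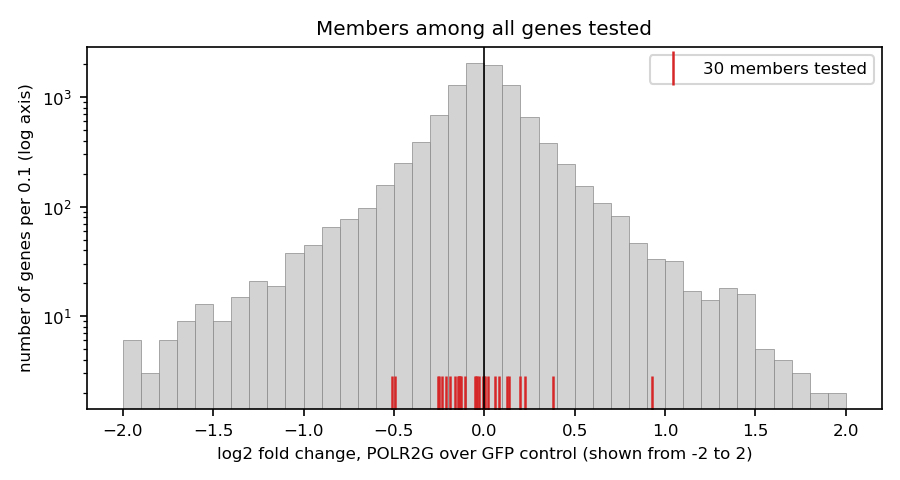
The grey bars count the genes tested by their log2 fold change, POLR2G over GFP control, on a logarithmic vertical axis. Genes beyond the ends of the horizontal axis are left out of the bars. Each red tick is 1 of the 30 interferon and sensing genes tested. The ticks lie between −0.51 and 0.93, with most close to 0.

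How closely the data bound each gene depends on its counts and on its spread among libraries. For 25 of the 30 genes (83.3%, against 74.7% of all genes tested) the 95% interval of the fold change stayed within 2-fold either way, and for 12 it stayed within 1.5-fold. The 5 wider ones were Ifnar1, Tlr3, Rsad2, Oas3 and Gbp2, for which a change of 2-fold is not bounded by these libraries.

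**Figure D2:**
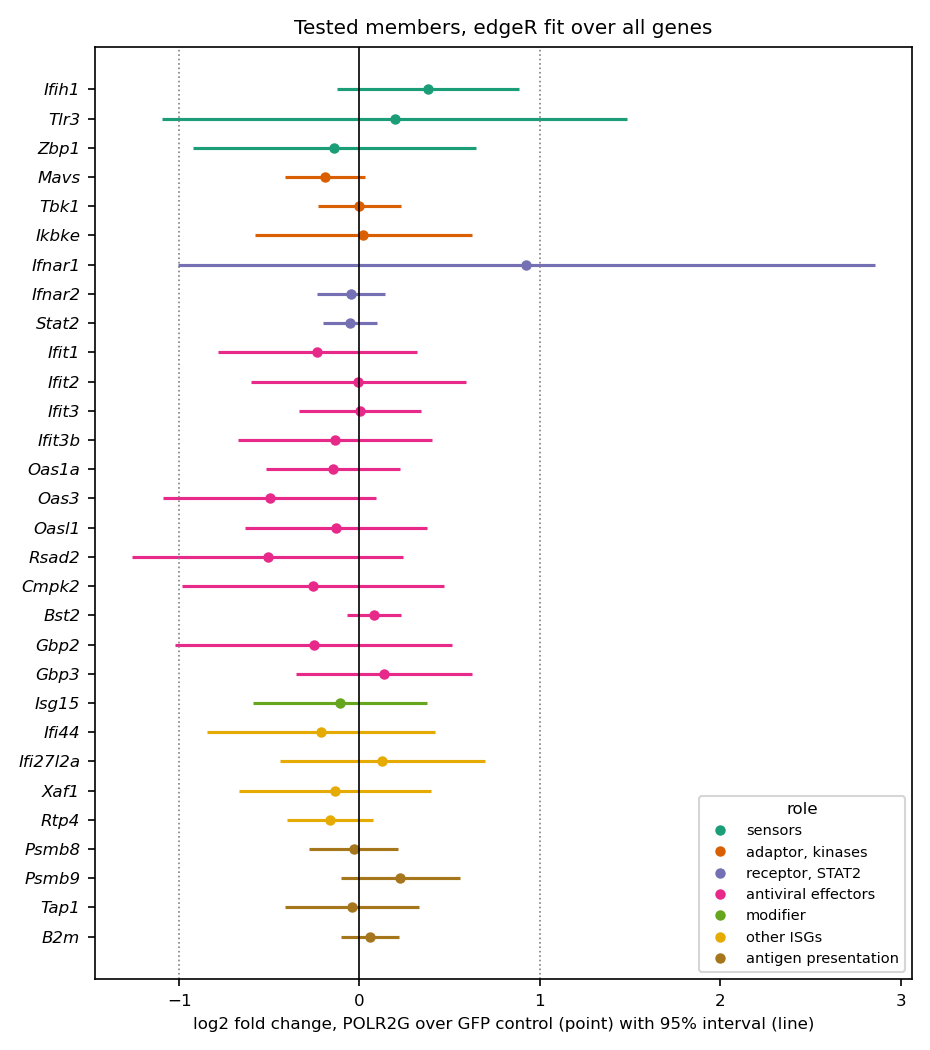
Each point is the log2 fold change of a tested gene, POLR2G over GFP control, and each line its 95% interval, with dotted lines at a 2-fold change either way and colours for the role of the gene. All 30 intervals include 0, from the narrow ones of Stat2 (−0.204 to 0.099) and Bst2 (−0.07 to 0.23) to that of Ifnar1 (−1.01 to 2.86).

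The libraries held 16362899 to 22165491 estimated counts in the POLR2G group and 14159056 to 18865284 in the GFP control group. Polr2g itself (ENSMUSG00000071662) had 38649 to 54553 counts in the 4 POLR2G libraries, against 213 to 258 in the 4 GFP control libraries. Every labelled library thus matched the group in its label, and the unnumbered POLR2G library matched the group in its column name. Values are in CPM, counts scaled to library size with TMM factors, and a list of 4 values runs in the order replicate 1, 3, 4 and the unnumbered library for POLR2G, whose column number is not among the labels, and replicates 1 to 4 for GFP control. Coordinates are from GENCODE M21 on GRCm38.

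The sensors are described first. Ifih1 (ENSMUSG00000026896; chr2:62595798-62646255, minus strand), which encodes MDA5, a cytosolic sensor of long double-stranded RNA, measured 10.4, 17, 13.7 and 12 CPM in the POLR2G libraries, against 11.3, 7.89, 7.74 and 13.9 CPM in the GFP control libraries. The mean was higher in the POLR2G libraries, yet GFP control replicate 4 lay above 3 of the 4 POLR2G libraries, and the groups overlapped (log2 fold change 0.38, SE 0.224, adjusted p = 0.727). Tlr3, the endosomal sensor of double-stranded RNA, measured 6.9, 2.81, 3.65 and 3.29 CPM in the POLR2G libraries, against 4.47, 5.98, 0.516 and 3.58 CPM in the GFP control libraries. GFP control replicate 3, with 8 counts, lay far below all other libraries, and the interval of the log2 fold change was wide (−1.09 to 1.48). Zbp1, the Z-form nucleic acid sensor that can set off necroptosis, measured 3.09, 2.17, 3.13 and 1.08 CPM in the POLR2G libraries, against 2.83, 1.91, 2.9 and 2.82 CPM in the GFP control libraries. The unnumbered POLR2G library was the lowest of the 8 and the other libraries overlapped (log2 fold change −0.14, SE 0.349). Ddx58, which encodes RIG-I, had 0 counts in every library, which allows up to 3 counts in each.

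The adaptor and the kinases that pass the signal on lay close together between the groups. Mavs (ENSMUSG00000037523; chr2:131234063-131248025, plus strand), the mitochondrial adaptor of RIG-I and MDA5, measured 44.6, 46.1, 53.6 and 53.1 CPM in the POLR2G libraries, against 64.7, 55.2, 55.2 and 50.3 CPM in the GFP control libraries. It had the smallest p among the 30 genes, with a mean 1.14-fold lower in the POLR2G libraries on the fitted scale (log2 fold change −0.19, SE 0.0978, adjusted p = 0.655), and GFP control replicate 4 lay below 2 POLR2G libraries. Tbk1, the kinase that activates IRF3, measured 27 ± 3.8 CPM in the POLR2G libraries and 27 ± 0.655 CPM in the GFP control libraries (SD, n = 4 each). Its 95% interval of −0.23 to 0.23 on the log2 scale lay within 1.5-fold either way. Ikbke, a related kinase that is itself induced by inflammatory signals, measured 19.7, 11.4, 12.9 and 19.3 CPM in the POLR2G libraries, against 22.6, 12.3, 10.3 and 17.1 CPM in the GFP control libraries. The GFP control libraries enclosed the POLR2G libraries (log2 fold change 0.022, SE 0.268).

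Of the receptor and its signal transducer, Ifnar2 and Stat2 were among the most closely bounded genes. Ifnar2, the ligand-binding chain of the interferon alpha and beta receptor, measured 48.3 ± 2.18 CPM in the POLR2G libraries and 49.98 ± 5.17 CPM in the GFP control libraries (SD, n = 4 each; log2 fold change −0.048, SE 0.0846, adjusted p = 0.933). Stat2 (ENSMUSG00000040033; chr10:128270559-128292849, plus strand), a transcription factor downstream of that receptor, measured 63.7, 56.5, 60.04 and 58.2 CPM in the POLR2G libraries, against 58.2, 60.8, 65.3 and 63 CPM in the GFP control libraries. Its libraries lay within 1.13-fold of each other in each group, and the groups overlapped (log2 fold change −0.052, SE 0.0673, adjusted p = 0.898). Ifnar1, the other receptor chain, had 45, 68, 3 and 37 counts in the POLR2G libraries, against 8, 4, 40 and 23 counts in the GFP control libraries. These counts spread widely in both groups, and the log2 fold change of 0.93, the highest among the 30 genes, had an SE of 0.859 (adjusted p = 0.842). With 1 library left out it ran from 0.44 (without POLR2G replicate 3) to 1.71 (without GFP control replicate 3).

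The promoters of the listed genes were searched for the letters of the element through which interferon acts, in windows of 300 bases (250 before and 50 after the start, RefSeq on GRCm38.p6). The pattern searched was GAAA, any 2 bases and GAAA again or, on the other strand, TTTC, any 2 bases and TTTC again, and it was present in 3.44% of all 32851 windows, or in at least 1 window of 3.99% of 27025 genes. Of the 38 listed genes, 30 matched an entry in that table, and 15 of these 30 held at least 1 match, overlapping matches included. The stretches below are shown because they belong to genes whose levels ran highest in GFP control replicate 1 and lowest in replicate 3 (Rsad2, Ifit1, Ifit3, Ifit3b, Isg15) and to genes named in their role for the smallest p or the highest CPM (Oas3, Bst2, B2m). They lie wholly before the start, are written 5′ to 3′ on the strand of the gene, and have the matching letters in capitals.
Rsad2 (chr12:26456548-26456587, minus strand): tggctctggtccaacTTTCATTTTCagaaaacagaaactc
Ifit1 (chr19:34640770-34640828, plus strand): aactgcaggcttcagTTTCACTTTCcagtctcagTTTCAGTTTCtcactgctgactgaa
Ifit3 (chr19:34583358-34583431, plus strand): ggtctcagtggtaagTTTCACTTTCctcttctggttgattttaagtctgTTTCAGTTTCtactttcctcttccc
Ifit3b (chr19:34607754-34607827, plus strand): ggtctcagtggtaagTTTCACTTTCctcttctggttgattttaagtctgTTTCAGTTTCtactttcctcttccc
Isg15 (chr4:156200860-156200911, minus strand): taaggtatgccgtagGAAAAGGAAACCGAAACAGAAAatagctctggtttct
Oas3 (chr5:120777710-120777749, minus strand): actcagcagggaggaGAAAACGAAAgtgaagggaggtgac
Bst2 (chr8:71537572-71537617, minus strand): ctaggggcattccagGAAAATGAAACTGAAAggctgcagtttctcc
B2m (chr2:122147533-122147572, plus strand): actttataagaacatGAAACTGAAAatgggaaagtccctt
Rsad2, Oas3 and B2m show 1 match, Ifit1, Ifit3 and Ifit3b show 2 that lie apart, Bst2 shows 2 that overlap, and Isg15 shows 3 that overlap in a row, the nearest of which begins 66 bases before the start. The stretches of Ifit3 and Ifit3b are identical at all 74 bases. A match of letters is a description and not a measured binding site. Among tested genes with a match 8 of 13 had a lower mean in the POLR2G libraries (median log2 fold change −0.11), and among those with an entry and no match 10 of 14 (median −0.037).

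Among the 16 antiviral effectors listed, 12 were tested, and 0 passed. Of the 12, 9 had a lower mean in the POLR2G libraries and 3 were higher, with a median log2 fold change of −0.14 (against −0.0031 over all genes tested). Rsad2 (ENSMUSG00000020641; chr12:26442746-26456452, minus strand), which encodes viperin, an enzyme whose product blocks viral RNA synthesis, measured 14.9, 9.37, 10.03 and 9.94 CPM in the POLR2G libraries, against 26.9, 15, 7.54 and 13.5 CPM in the GFP control libraries. GFP control replicate 1 was the highest of the 8 libraries and GFP control replicate 3 the lowest, so that the control group enclosed the whole POLR2G group (log2 fold change −0.51, SE 0.334, adjusted p = 0.753). Without GFP control replicate 1 the log2 fold change was −0.12, and without GFP control replicate 3 it was −0.74 (edgeR adjusted p = 0.475). Cmpk2, a mitochondrial nucleotide kinase whose gene lies 12751 bases from that of Rsad2 and is read in the opposite direction, measured 6.37, 5.85, 4.27 and 6.23 CPM in the POLR2G libraries, against 11, 6.73, 3.29 and 6.12 CPM in the GFP control libraries. The same pair of control libraries gave the highest and the lowest value (log2 fold change −0.26, SE 0.323).

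The Ifit genes, a cluster on chromosome 19 whose proteins bind foreign RNA ends or scaffold antiviral complexes, are described next. Ifit1 (ENSMUSG00000034459; chr19:34640871-34650009, plus strand) measured 11.9, 12.4, 11.3 and 13.8 CPM in the POLR2G libraries, against 22.3, 10.5, 9.67 and 15.4 CPM in the GFP control libraries. The POLR2G libraries lay within 1.22-fold of each other, while the GFP control libraries spanned 2.303-fold (log2 fold change −0.23, SE 0.245). Ifit3 measured 19.7 ± 1.7 CPM in the POLR2G libraries and 19.7 ± 4.12 CPM in the GFP control libraries, and Ifit3b 4.69 ± 0.561 CPM in the POLR2G libraries and 5.14 ± 1.53 CPM in the GFP control libraries (SD, n = 4 each). Ifit3 and Ifit3b are close copies, and reads that match both can be shared out between them, which makes either value alone uncertain. Their sum, which does not depend on that split, was 24.4 ± 1.84 CPM in the POLR2G libraries and 24.8 ± 5.63 CPM in the GFP control libraries (SD, n = 4 each, exact two-sided permutation p = 1, where 4 against 4 libraries allow no p under 0.0286). Ifit2 measured 7.96, 6.67, 5.24 and 5.57 CPM in the POLR2G libraries, against 6.33, 3.54, 7.54 and 8.18 CPM in the GFP control libraries. Here GFP control replicate 2 and not replicate 3 was the lowest of the 8 libraries (log2 fold change −0.007, SE 0.265).

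The 2′-5′ oligoadenylate synthetase family makes the signal molecule that activates RNase L. Oas3 (ENSMUSG00000032661; chr5:120753098-120777661, minus strand), a member of this family, measured 2.41, 1.52, 1.37 and 1.62 CPM in the POLR2G libraries, against 2.37, 2.38, 2.39 and 2.66 CPM in the GFP control libraries. POLR2G replicates 3 and 4 and the unnumbered library lay below all controls, and POLR2G replicate 1 lay among them, with 24 to 50 counts in the 8 libraries (log2 fold change −0.497, SE 0.263, adjusted p = 0.672). Oas1a, which shares sequence with other Oas1 genes nearby and is uncertain for that reason, measured 4.88 ± 0.606 CPM in the POLR2G libraries and 5.4 ± 0.361 CPM in the GFP control libraries (SD, n = 4 each; log2 fold change −0.15, SE 0.165). Oasl1, a synthetase-like protein without that enzyme activity that restrains Irf7 translation, measured 9.11 ± 2.25 CPM in the POLR2G libraries and 9.97 ± 2.26 CPM in the GFP control libraries (SD, n = 4 each; log2 fold change −0.13, SE 0.224). Both overlapped with the control libraries and had a lower mean in the POLR2G libraries.

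Bst2 (ENSMUSG00000046718; chr8:71534255-71537456, minus strand), which encodes tetherin, a protein that holds budding virus at the cell surface, measured 156, 135, 142 and 147 CPM in the POLR2G libraries, against 135, 145, 137 and 132 CPM in the GFP control libraries. It was the most abundant effector by CPM, and the groups overlapped within a narrow band (log2 fold change 0.08, SE 0.0666, adjusted p = 0.819). The guanylate-binding proteins Gbp2 and Gbp3, GTPases that attack the membranes of intracellular pathogens and answer mainly to interferon gamma, did not share the order seen for Rsad2. Gbp2 measured 4.01, 5.62, 5.92 and 5.93 CPM in the POLR2G libraries, against 2.83, 5.45, 10.1 and 7.26 CPM in the GFP control libraries. GFP control replicate 1 was the lowest of the 8 libraries for Gbp2 and GFP control replicate 3 the highest, the reverse of Rsad2 (log2 fold change −0.25, SE 0.341). Gbp3 measured 10.8 ± 2.72 CPM in the POLR2G libraries and 9.77 ± 1.87 CPM in the GFP control libraries (SD, n = 4 each; log2 fold change 0.14, SE 0.218).

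Isg15 (ENSMUSG00000035692; chr4:156199424-156200818, minus strand), a ubiquitin-like modifier that is joined to many proteins after interferon, measured 11.4, 7.61, 10.03 and 10.3 CPM in the POLR2G libraries, against 14, 11.8, 7.09 and 9.54 CPM in the GFP control libraries. GFP control replicate 1 was again the highest library and GFP control replicate 3 the lowest (log2 fold change −0.11, SE 0.214, adjusted p = 0.94). Among the other interferon-stimulated genes Rtp4, a receptor transporter protein gene that interferon induces, measured 12, 12.1, 14.1 and 13.5 CPM in the POLR2G libraries, against 13.7, 13.2, 15.5 and 15.3 CPM in the GFP control libraries. The mean was lower in the POLR2G libraries, and POLR2G replicates 4 and unnumbered lay among the controls (log2 fold change −0.16, SE 0.106, adjusted p = 0.753). Ifi44 measured 3.16 ± 0.911 CPM in the POLR2G libraries and 3.66 ± 0.819 CPM in the GFP control libraries, Ifi27l2a 5.16 ± 1.3 CPM in the POLR2G libraries and 4.74 ± 1.35 CPM in the GFP control libraries, and Xaf1, named for its binding to the apoptosis inhibitor XIAP, 4.24 ± 1.15 CPM in the POLR2G libraries and 4.67 ± 0.426 CPM in the GFP control libraries (SD, n = 4 each). Their log2 fold changes were −0.21 (SE 0.281), 0.13 (SE 0.253) and −0.14 (SE 0.237).

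**Figure D3:**
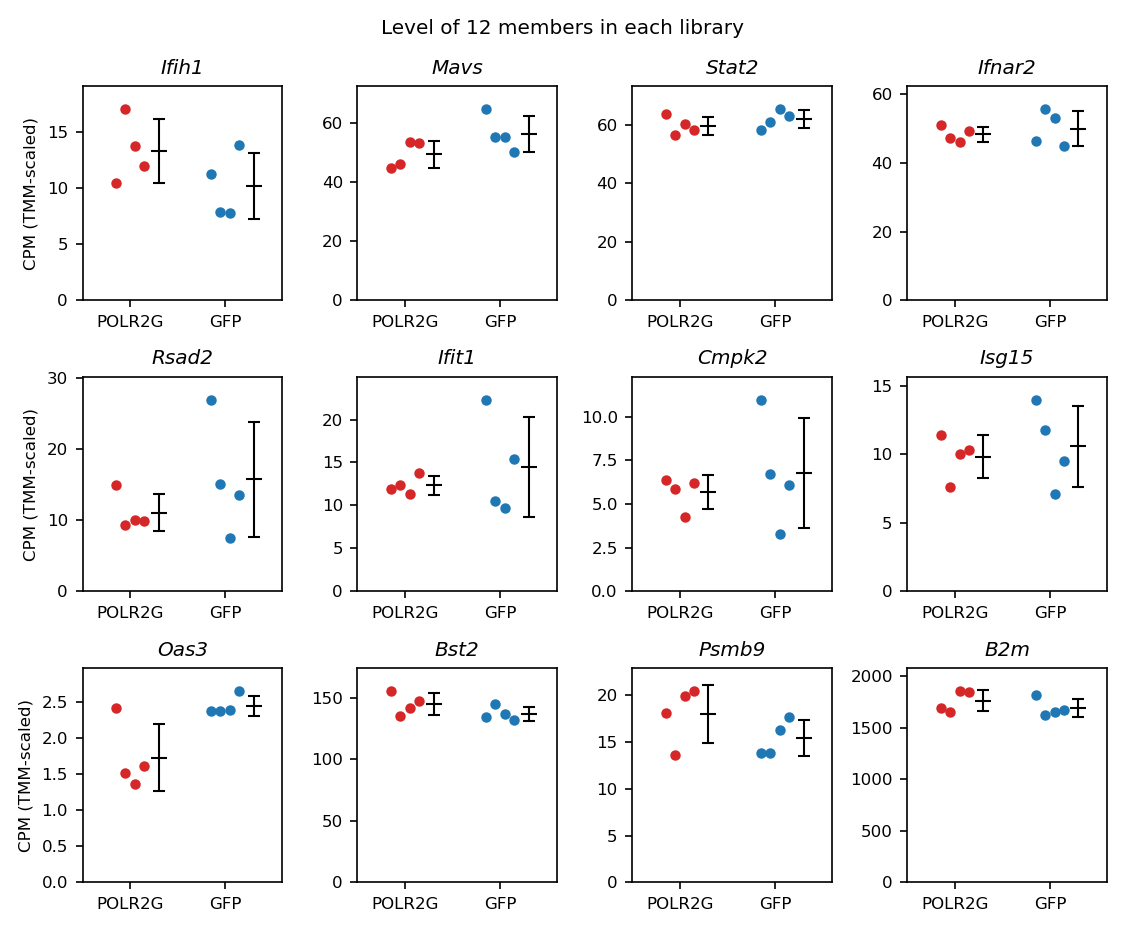
Each panel gives the level of 1 gene in CPM from 0, with the 4 POLR2G libraries as red points on the left, the 4 GFP control libraries as blue points on the right, and mean ± SD beside each group. The groups overlap in all 12 panels, and for Rsad2, Ifit1, Cmpk2 and Isg15 the control points enclose those of the POLR2G libraries.

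GFP control replicate 1 was the highest and GFP control replicate 3 the lowest of the 8 libraries for 7 of the 30 genes, or 23.3% (Ikbke, Ifit1, Ifit3, Ifit3b, Rsad2, Cmpk2 and Isg15), an order that 3.58% of all genes tested had. This order was chosen after the values were seen and is given without a test. For these 7 genes the highest GFP control library exceeded the lowest by 1.62-fold to 3.56-fold, and the highest POLR2G library exceeded the lowest by 1.21-fold to 1.72-fold. The choice of this order itself makes the control range the wider one for each of them, so the 2 ranges do not compare the groups. Of the 7 genes, 5 held the promoter letters shown above, and Ikbke and Cmpk2 did not. Among all listed genes with a promoter entry, 15 of 30 (50%) held them. Ifit3 and Ifit3b have the same stretch and are not separate cases. Whether the letters bear on this order was not tested. The median SD of log2 CPM over the 12 antiviral effectors was 0.264 among the POLR2G libraries and 0.402 among the GFP control libraries, and over all genes tested it was 0.204 and 0.239 in the same order. The SD was larger among the GFP control libraries for 8 of the 12 effectors, for 17 of all 30 genes and for 59.4% of all genes tested. Over the 30 genes the median SD was 0.263 among the POLR2G libraries and 0.302 among the GFP control libraries. It was the larger one among the POLR2G libraries for the other interferon-stimulated genes, at 0.387 against 0.23 among the GFP control libraries, and for antigen presentation, at 0.209 against 0.16.

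**Figure D4:**
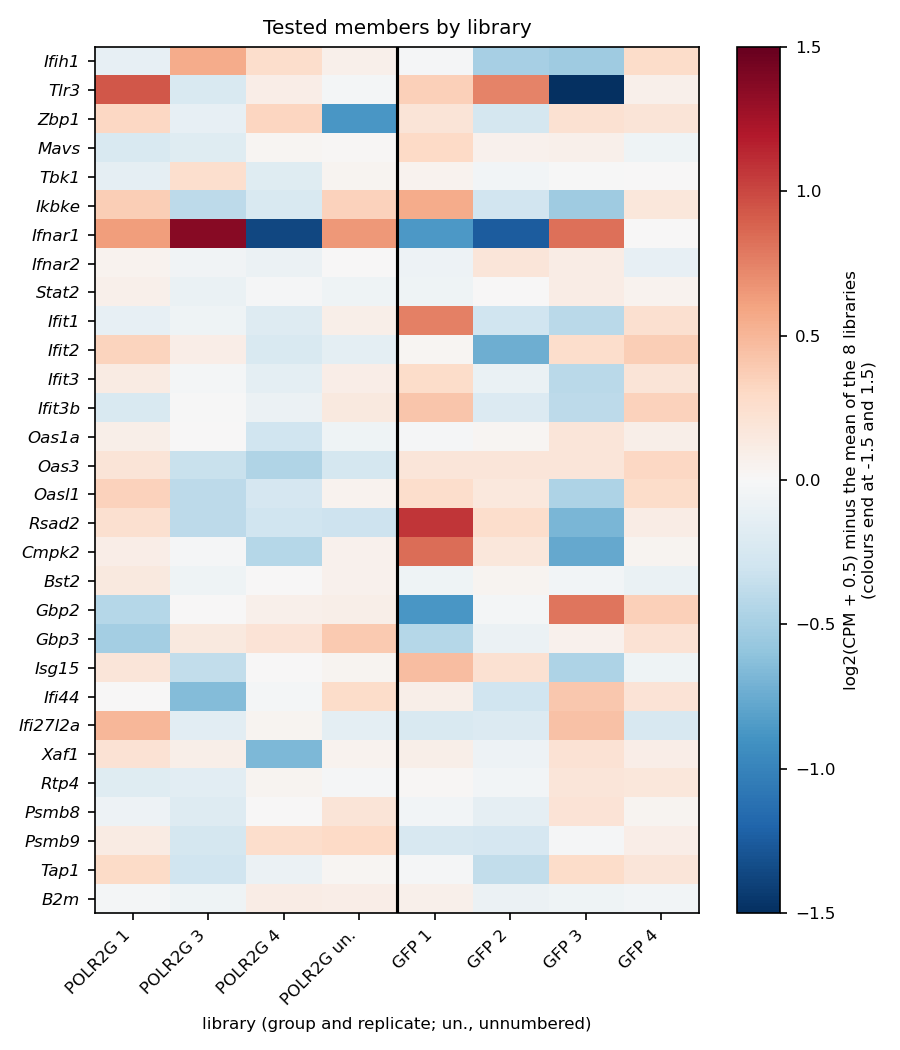
Colours give the log2 level of each tested gene, with 0.5 added to the CPM, in each library minus its mean over the 8 libraries, with the POLR2G libraries left of the black line and the GFP control libraries right of it. No block of colour separates the groups, and for Rsad2, Cmpk2, Ifit1 and Isg15 GFP control replicate 1 is the highest column and replicate 3 the lowest.

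Antigen presentation genes, many of which interferon raises, were close between the groups, with 0 of 4 past the threshold, 2 higher and 2 lower means, and all 4 intervals within 1.5-fold. B2m (ENSMUSG00000060802; chr2:122147686-122153083, plus strand), beta-2-microglobulin, the shared light chain of MHC class I, measured 1693, 1658, 1859 and 1851 CPM in the POLR2G libraries, against 1823, 1621, 1651 and 1677 CPM in the GFP control libraries. The groups overlapped and the interval of the log2 fold change was −0.101 to 0.22 (log2 fold change 0.06, SE 0.0716, adjusted p = 0.886). Psmb9 (ENSMUSG00000096727; chr17:34181987-34187764, minus strand), an immunoproteasome subunit, measured 18, 13.6, 19.9 and 20.4 CPM in the POLR2G libraries, against 13.9, 13.8, 16.2 and 17.7 CPM in the GFP control libraries. POLR2G replicate 3 was the lowest of the 8 libraries while the other 3 POLR2G libraries lay above all controls (log2 fold change 0.23, SE 0.147, adjusted p = 0.752). Psmb8, another immunoproteasome subunit, measured 23.9 ± 2.83 CPM in the POLR2G libraries and 24.5 ± 2.51 CPM in the GFP control libraries, and Tap1, a subunit of the peptide transporter into the endoplasmic reticulum, 21.2 ± 3.73 CPM in the POLR2G libraries and 21.8 ± 4.16 CPM in the GFP control libraries (SD, n = 4 each). Psmb9 and Tap1 overlap by 212 bases on opposite strands in the annotation, and whether strand was used in the counting is not given in the sources used here.

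Levels can be set side by side between genes only per length, which was done for the 12 genes with 1 annotated coding transcript. B2m stood highest, at 2053 in the POLR2G libraries and 1969 in the GFP control libraries, in mean CPM per kilobase of that transcript. Bst2 followed at 183 in the POLR2G libraries and 173 in the GFP control libraries, and Isg15 at 13 in the POLR2G libraries and 14 in the GFP control libraries. The other 9 ranged from 1.086 (Ifi44) to 11.3 (Ifit3) in the POLR2G libraries and from 1.26 (Ifi44) to 11.3 (Ifit3) in the GFP control libraries.

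The 6 genes below the filter on low counts had few or no counts in most libraries. Mx1, a GTPase that blocks influenza virus and is defective in many laboratory mouse strains, had 0, 5, 0 and 0 counts in the POLR2G libraries, against 48, 0, 11 and 32 counts in the GFP control libraries. GFP control replicate 2 was at 0 like 3 POLR2G libraries, so the groups overlapped, and the other 3 controls lay above every POLR2G library. Without the filter Mx1 had an unadjusted p of 0.0158 and an adjusted p of 0.586 in edgeR, and over the 8 alternatives in which it entered the fit the adjusted p ran from 0.366 to 0.795. A gene that passes such a filter only in some settings, through the group where it is high, is given as a value and not as a difference. Cxcl10, a chemokine that draws in T cells, had 0 counts in every library, which allows up to 3 counts in each. Usp18, the protease that removes ISG15 and dampens the interferon receptor, had 5, 0, 1 and 6 counts in the POLR2G libraries, against 4, 1, 2 and 2 counts in the GFP control libraries. Oas2 had 10 counts in GFP control replicate 2 and 0 in the other 7 libraries, and Oasl2 had 4 counts in POLR2G replicate 4, 8 counts in GFP control replicate 3 and 0 in the other 6.

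All 6 of these genes have several annotated coding transcripts, while the 12 genes with 1 coding transcript were all tested, and 18 of 24 with several (75%) were. Over the whole table the order was the other way: 52.8% of genes with several coding transcripts and 44% of those with 1 were tested. Whether the gene values hold all transcripts was not tested here, and the low values of Ddx58, Cxcl10, Mx1, Oas2, Oasl2 and Usp18 are to be read with that limit. The same limit holds for the 18 tested genes with several coding transcripts, Ifnar1 and Tlr3 included, and for cell type markers with several.

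The other genes of the pathway were read from the same fit. Of 107 genes listed, 99 were in the table and 70 were tested, and 0 of the 70 passed in either direction in edgeR or DESeq2. At an unadjusted p under 0.05 there was 1 of 70 (1.43%, against 8.3% of all genes tested), and 36 had a lower and 34 a higher mean. The ligands come first: of 18 interferon genes (alpha, beta, epsilon, kappa, lambda and gamma) 16 had 0 counts in all 8 libraries, Ifnk had at most 5 counts and Ifng at most 2 in a library. Among other sensors and adaptors 0 of 17 tested passed (median log2 fold change −0.049). The genes with the smallest p there were Aim2, a sensor of cytosolic DNA, and Trim25, a ubiquitin ligase that activates RIG-I. Their log2 fold changes were 0.74 (SE 0.487) and −0.14 (SE 0.0932). Among interferon receptors and JAK-STAT genes 0 of 6 passed (median 0.043), with the receptor kinase genes Tyk2 at 0.19 (SE 0.0948) and Jak1 at 0.11 (SE 0.0678).

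In a wider list of interferon-stimulated genes 0 of 33 passed, with 20 higher and 13 lower means (median log2 fold change 0.047). Parp12, an ADP-ribosyltransferase with antiviral activity, measured 44.8 ± 2.55 CPM in the POLR2G libraries and 39.2 ± 3.56 CPM in the GFP control libraries (SD, n = 4 each; log2 fold change 0.19, SE 0.0829, adjusted p = 0.584). Helz2, a helicase that acts as a nuclear receptor coactivator, had a log2 fold change of −0.14 (SE 0.0678). Among other antigen presentation genes 0 of 14 passed (median −0.017), with the proteasome activator gene Psme1 at −0.12 (SE 0.071) and the peptide transporter gene Tap2 at −0.23 (SE 0.172).

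Several of these genes are also expressed by liver cells other than hepatocytes, and in whole liver fewer cells of a type and less RNA per cell cannot be told apart. Markers of Kupffer cells, the resident macrophages, summed to 334 to 651 CPM in the POLR2G libraries and 303 to 447 CPM in the GFP control libraries, with the unnumbered POLR2G library the highest. Of these 11 markers, 10 had a higher mean in the POLR2G libraries, against 49.3% of all genes tested, and 0 passed (edgeR). For each of these 10 the unnumbered POLR2G library was the highest, as for Marco at 60.6 CPM against at most 10.5 CPM in the controls. The numbered POLR2G libraries summed to 334 to 411 CPM, inside the range of the controls, so the higher means rest largely on that library. Of 10 hepatocyte markers, 9 had a lower mean in the POLR2G libraries, against 50.7% of all genes tested. Stellate cell markers had 4 higher and 2 lower means. Markers of plasmacytoid dendritic cells, a main source of interferon alpha, summed to 0.684 to 1.46 CPM in the POLR2G libraries and 0.258 to 0.986 CPM in the GFP control libraries, and 0 of 5 passed the filter on low counts. T and NK cell markers summed to 3.47 to 5.99 CPM in the POLR2G libraries and 3.45 to 4.99 CPM in the GFP control libraries, and sinusoidal endothelial markers to 113 to 143 CPM and 107 to 144 CPM in the same order. Hepatocyte markers, led by albumin, summed to 130239 to 145897 CPM in the POLR2G libraries and 138002 to 159839 CPM in the GFP control libraries, so every library held hepatocyte RNA. Over 10 marker lists 0 of 40 tested genes passed (edgeR), 3 of 40 (7.5%, against 8.3% of all genes tested) had an unadjusted p under 0.05, and 3 of 40 (7.5%, against 5.51%) did not overlap between the groups. Lyve1, a sinusoidal endothelial marker, measured 7.38, 6.09, 7.58 and 6.95 CPM in the POLR2G libraries, against 11.9, 9.34, 21.1 and 8.29 CPM in the GFP control libraries. Every POLR2G library lay below every control for Lyve1 (log2 fold change −0.85, SE 0.277, unadjusted p = 0.0128, adjusted p = 0.444 in edgeR). Of the 6 sinusoidal endothelial markers tested, Lyve1 included, 3 had a lower and 3 a higher mean in the POLR2G libraries. As with Lyve1, the hepatocyte marker Ttr (log2 fold change −0.19, edgeR unadjusted p = 0.0348) and the neutrophil marker Cxcr2 (−0.52, edgeR unadjusted p = 0.0881) were below all controls in every POLR2G library. Csf3r, the other neutrophil marker tested, had a higher mean in the POLR2G libraries (log2 fold change 0.40, edgeR unadjusted p = 0.278). Neutrophil markers summed to 5.97 to 6.32 CPM in the POLR2G libraries and 5.63 to 9.16 CPM in the GFP control libraries. The Kupffer cell marker Lyz2 had a log2 fold change of 0.61 (edgeR unadjusted p = 0.0368), and its groups overlapped. The part of these cells in the levels of the interferon genes was not tested.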

How the data were processed

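Libraries were strand-specific and built from poly-A RNA of frozen liver, per the labels' protocols. The deposited table holds estimated counts as whole numbers per Ensembl gene, not normalized by the authors. Salmon 1.2.1 and the builds GRCm38 and mm10 are named in the submitters' processing notes. How transcript values were summed to genes, and on which annotation release, is not given in the sources used here. Symbols came from the GENCODE M21 name table (20817 of 20894 identifiers). Columns were assigned by library name, and 1 POLR2G column without a listed number was used without a replicate number.

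The fit ran over the whole table with edgeR 4.0.16 in R 4.3.3: TMM scaling, filterByExpr (minimum count 10, minimum total 15), the quasi-likelihood test with group as the only term, two-sided, and Benjamini-Hochberg adjustment over 10390 genes at a threshold of 0.05. The SE is the size of the log2 fold change divided by the square root of F, and the 95% interval uses the t distribution of that test. DESeq2 1.42.0 and limma 3.58.1 were alternatives. Counting precision is limited by totals of 14159056 to 22165491 counts. Counts of any 2 libraries of a group differed beyond sampling noise (chi-square over its degrees of freedom, 12.9 to 126.6), so no column was a copy of another in its group. Separate libraries of 1 animal can differ in this way too, so the check cannot show that they came from different animals. Each library was counted as a sample. The steps were tested on simulated data.

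The genes and lists were chosen with earlier results of these data known. Named genes of the list are those past a threshold or apart between groups, and in each role the gene with the smallest p and the most abundant one, and in each further pathway list the 2 with the smallest p. All further genes, which are the rest of the list, and the single cell type markers were named after their values were seen.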

Additional observations from a re-analysis of the deposited data

Results flagged for a closer look

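A library far from the other 3 of its group was found in 5 of the 60 groups of 4 values examined (30 genes in 2 groups), or 8.33%. The limit used flags about 1 in 20 for normally distributed values. CPM values need not be distributed so, and the share over all genes was not computed. Rsad2 stood high in POLR2G replicate 1, at 14.9 CPM against 9.37 to 10.03 CPM in the other POLR2G libraries. Gbp2 stood low in the same library, at 4.01 CPM against 5.62 to 5.93 CPM. Zbp1 stood low in GFP control replicate 2, at 1.91 CPM against 2.82 to 2.901 CPM in the other controls. Oas3 stood high in GFP control replicate 4, at 2.66 CPM against 2.37 to 2.39 CPM. Ifi27l2a stood high in GFP control replicate 3, at 6.77 CPM against 4.01 to 4.12 CPM.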

How the results depend on the processing

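The count of interferon and sensing genes past the threshold was 0 under each of the 19 alternatives run, with the smallest edgeR adjusted p at 0.366 (Mx1, without GFP control replicate 2). At an unadjusted p under 0.05 the count of 0 became 0 to 2 when 1 library was left out: Mx1 and Oas3 without POLR2G replicate 1, Mx1 and Psmb9 without POLR2G replicate 3, Ifih1 and Mavs without GFP control replicate 4, Rsad2 without GFP control replicate 3, and Mx1 alone without POLR2G replicate 4, the unnumbered POLR2G library or GFP control replicate 2. It was 1 with no composition scaling (Mavs) and 1 (Mx1) with no filter, with the replicate block and over its 6 libraries without a block. Mx1 is not among the 30 genes, and where it passed the filter it did so through the controls. It is counted here as a value and not as a difference. The share of all genes at that unadjusted p in these fits is not given here. The median log2 fold change of the interferon and sensing genes stayed below 0 in all 19, from −0.16 to −0.0018. The number with a lower mean was 9 of 12 when only genes with 1 coding transcript were fitted, and 15 to 24 when 1 library was left out. Over all genes, the count of 4 became 1 with no composition scaling, 135 with DESeq2, 2 without Polr2g, and 1 to 6 when 1 library was left out. It was 2 with the replicate block over the 6 libraries with shared numbers, and 1 without a block over the same 6, a fit added after seeing the data. Deviations of same-numbered libraries correlated at 0.064, −0.025 and 0.036, so the numbers were not taken as pairs. For 12 of the 30 genes the sign never changed. For the other 18, none of them past the threshold in any fit, the sign of the log2 fold change turned in at least 1. With 1 library left out, it ran from −0.48 to 0.076 for Cmpk2, −0.50 to 0.049 for Gbp2, −0.063 to 0.34 for Ifi27l2a, −0.38 to 0.053 for Ifit1, −0.21 to 0.14 for Ifit2, −0.12 to 0.102 for Ifit3, −0.28 to 0.0079 for Ifit3b, −0.095 to 0.0085 for Ifnar2, −0.13 to 0.26 for Ikbke, −0.26 to 0.054 for Isg15, −0.11 to 0.033 for Psmb8, −0.16 to 0.048 for Tap1, −0.094 to 0.056 for Tbk1, −0.16 to 0.54 for Tlr3, −0.25 to 0.0398 for Xaf1 and −0.303 to 0.098 for Zbp1. Tbk1 was 0.00011 with RLE factors, 0.021 with upper quartile factors and 0.00086 with no filter. Ifit2 was 0.015 with upper quartile factors and 0.055 with limma-voom. With no composition scaling Ikbke was −0.031, Ifit3 −0.061 and B2m −0.012. With the replicate block Ikbke was −0.16, Ifnar2 0.00048, Ifit3 −0.045 and Gbp3 −0.0062, and over the same 6 libraries without it Ikbke was −0.19 and Ifit3 −0.069. Ifit3 was −0.0040 among genes with 1 coding transcript. The cause of these changes was not tested. Ifnar1 (SE 0.859, 3 to 68 counts) and Tlr3 (SE 0.573, 8 to 143 counts) had the largest SE among the 30 genes. The counts of both spread widely among libraries.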
